A study of Xenopus laevis with 20 samples.

Results

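Molecular chaperones, their co-chaperones and the heat shock factors were followed in the frog Xenopus laevis, in RNA of whole embryos at stage 13, the early neurula. A probe set belonged to the group when its platform gene symbol began with hsp, dnaj, cct2 to cct8, tcp1, hsf plus a digit, bag1 to bag6, stip1 or fkbp. This rule used names and no measured value, and it took 95 of the 15491 gene probe sets. Of these, 92 carried 1 symbol and stood for 77 distinct symbols. The other 3 carried a pair of symbols (the .L and .S copies of dnajb11, hspa5 or tcp1) and could not be assigned to either copy. The endings .L and .S mark the homeologous copies that this allotetraploid frog carries of many genes. In 13 symbols more than 1 probe set read the same transcript, so probe sets of 1 symbol were not treated as separate genes.

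Chaperones bind proteins that are not yet folded or that have lost their fold. HSP70 proteins grip short exposed stretches in cycles of ATP hydrolysis, and J-domain proteins (DNAJ) deliver the client and start the hydrolysis. Nucleotide exchange factors such as HSP110, some BAG proteins and hspbp1 reset the cycle. HSP90 acts later on selected clients, while barrel-shaped chaperonins (CCT/TRiC in the cytosol, hspd1 with hspe1 in mitochondria) enclose them, CCT/TRiC being best known for actin and tubulin. FKBP proteins are peptidyl-prolyl isomerases, several of them in the endoplasmic reticulum, and heat shock factors such as hsf1 switch on inducible chaperone genes under proteotoxic stress.

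The 20 single-colour Affymetrix arrays were labelled as 10 uninjected control arrays (1 to 10), 5 arrays of embryos injected with Xrx1 mRNA and 5 of embryos injected with a morpholino against Xrx1 (Mo-Xrx1, an antisense oligonucleotide that blocks translation). Xrx1, now called rax, is an eye field homeobox gene. Both kinds of injected embryo also received GFP mRNA as a tracer; the dorsal blastomeres, on both sides, were injected at the 4-cell stage, and uninjected siblings grew in the same medium. The sample labels gave 50 pg of Xrx1 mRNA and 400 pg of GFP mRNA, the design text gave the same figures in ng, and the morpholino amount differed between sources. By the sample labels 3 embryos were pooled for an array, whereas the design text spoke of single embryos. No label said whether arrays came from different clutches, so a p-value here speaks of array-to-array spread, which may be technical. In a whole embryo, fewer cells of a type and less RNA per cell cannot be told apart.

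The tracer went against the labels of 8 arrays. The control probe set AFFX-Xl-M62653-1_s_at had log2 values from 13.1 to 14.5 in the mRNA group, against 3.04 to 3.32 in controls 1 to 5. In the second set of 10 arrays it was high, at 13.8 to 14.8, in the arrays labelled control 6 to 9 and morpholino 5. It was low, at 2.80 to 2.95, in the arrays labelled control 10 and morpholino 1 to 4. The labels were kept in all tests, the direction of any difference inside the second set is therefore unsettled, and the tracer state is used below for description only. Controls 1 to 5 with mRNA 1 to 5 are called the first set and the other 10 arrays the second set; the labels do not name these sets.

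Testing required a log2 signal above 4 in 5 or more of the 20 arrays, which kept 79 of the 95 members and 10435 probe sets in all. A probe set is said to be called when its limma p, after Benjamini-Hochberg adjustment over all 10435, was under 0.05. Levels are means of deposited log2 values ± SD over 5 arrays unless stated otherwise, and differences are on the log2 scale ± the SE of the fit. Levels of different probe sets were not compared with each other. Pairwise correlations within the 4 groups ran from 0.954 to 0.995, and the number of arrays limits the precision. Of 34 probe sets for markers of neural plate, epidermis, paraxial mesoderm, endoderm and axial mesoderm, 26 were above log2 4 in every array.

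Of the 16 members that were not tested, 13 were not above log2 4 in any array. Among them hsp70.L, an inducible HSP70, lay between 1.77 and 2.15. The nucleotide exchange factor bag3.L, which is strongly induced by stress in mammals, lay between 2.50 and 3.01. All 5 probe sets of small heat shock proteins (hspb1.L, hspb1.S, hspb7.L and hspb8.L), which hold unfolded proteins without ATP, failed the filter; 1 of them passed log2 4 in a single array, with hspb7.L at 4.18. The other untested probe sets read cct8.S, dnajb2.L, dnajc5.S, dnajc9.L, fkbp1b.L, fkbp1b.S, fkbp7.L and hspd1.L, and some of these symbols had another probe set that was tested.

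**Figure D1:**
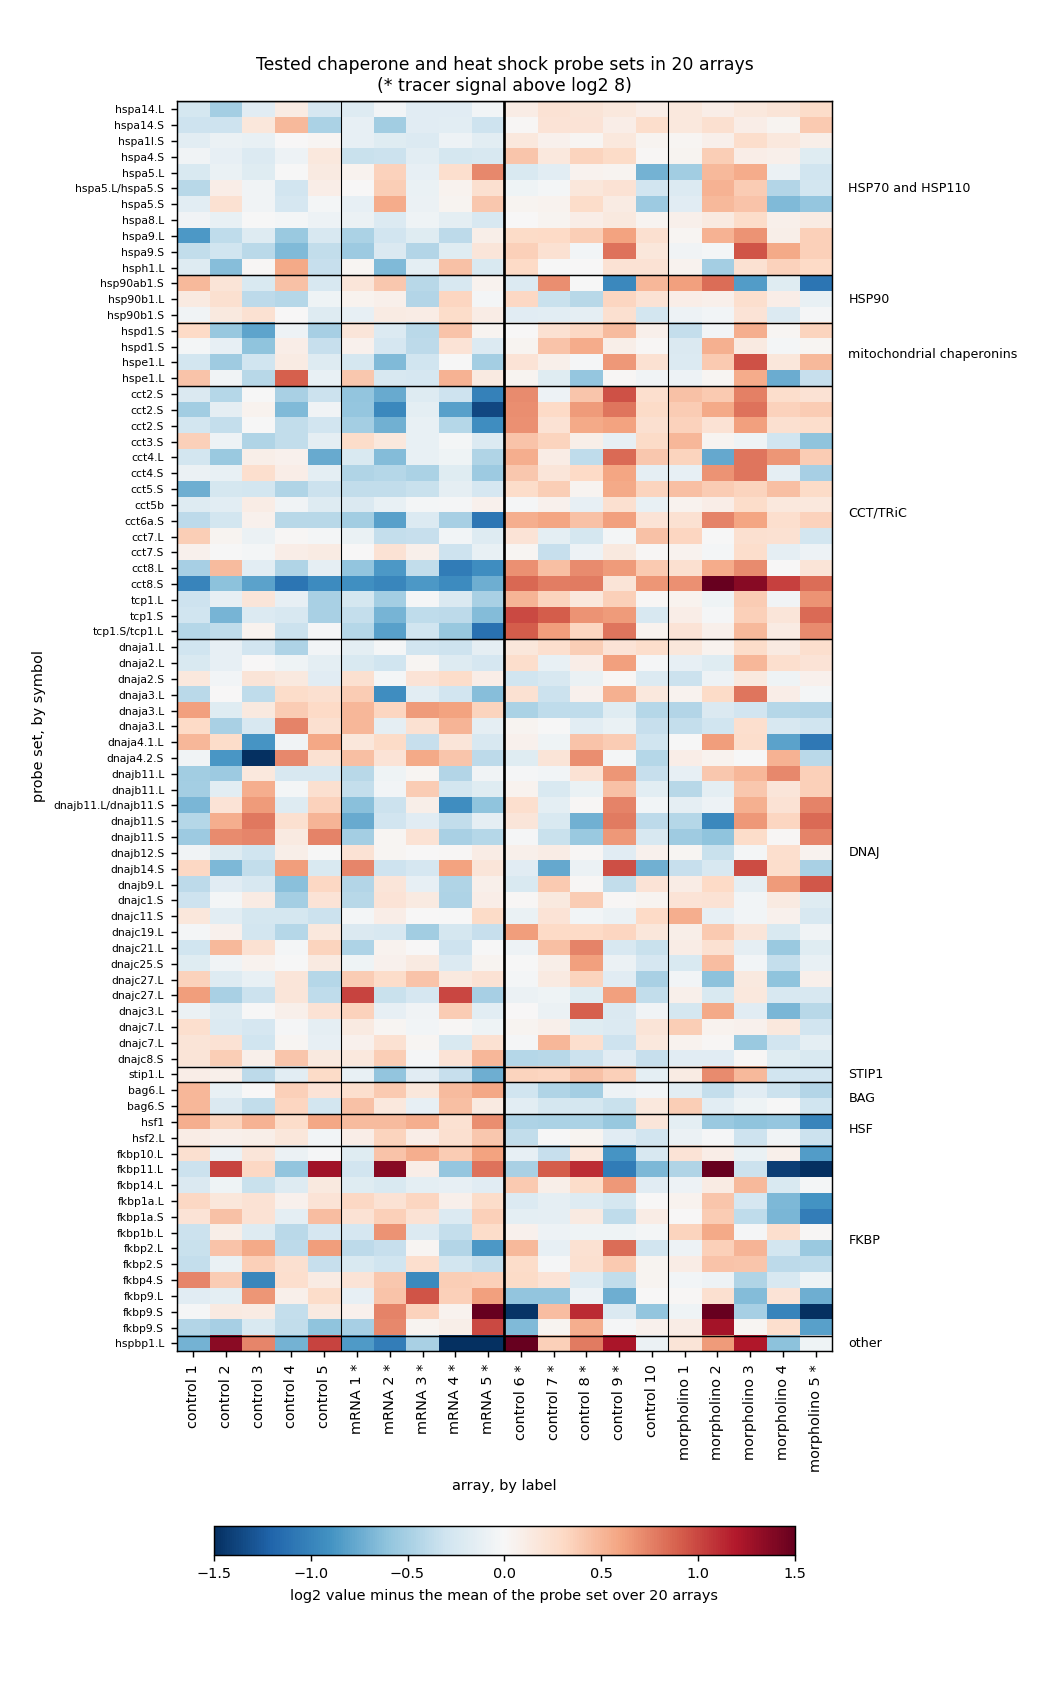
Heat map of the 79 tested probe sets (rows, by family and symbol) in the 20 arrays (columns, by label; an asterisk marks a tracer signal above log2 8). Colour gives the log2 value minus the mean of the probe set over 20 arrays. The thick line parts the first set from the second, and thin lines part the labelled groups. Of the 16 CCT/TRiC rows 15 had a higher median in the second set, 5 of them without overlap between the sets.

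The first question was whether chaperone transcripts differed between embryos injected with Xrx1 mRNA and controls. It was asked within the first set, where tracer and labels went together. The controls were labelled uninjected, so Xrx1 mRNA, GFP mRNA and the injection itself cannot be told apart here. None of the 79 tested members was called between mRNA arrays 1 to 5 and controls 1 to 5, beside 0 of all 10435 (0%). At an unadjusted p under 0.05 stood 10 members, and 812 of all tested probe sets (7.78%). The median member difference was 0.0054, beside 0.031 over all tested. No label states that arrays of the same number are pairs, and this pairing was inferred from correlations in these same data, described below. With the replicate number as a block, 7 probe sets were called (0.0671%). All 7 were lower in mRNA arrays and 0 were members. Under the block, 20 of the 79 members had an unadjusted p under 0.05, beside 1528 of all 10435 tested probe sets.

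None of the 11 HSP70 and HSP110 probe sets was called in the first set. The level of hspa8.L, the constitutive cytosolic HSP70, was 14.00, 13.94, 14.04, 14.01 and 13.97 in controls 1 to 5 and 13.96, 13.84, 13.98, 13.90 and 13.80 in mRNA arrays 1 to 5. The groups overlapped, and hspa8.L differed by less than 0.1 on the log2 scale between their means. The ER-resident hspa5.L, known as BiP and a standard readout of ER stress, was at 9.96, 10.08, 10.01, 10.18 and 10.32 in controls 1 to 5. In mRNA arrays 1 to 5 it was at 10.24, 10.53, 10.07, 10.44 and 10.91. Each mRNA array was above the control of its own number, yet the groups overlapped, and the difference of 0.33 ± 0.16 had a limma adjusted p of 0.661. The hspa5.S probe set averaged 9.22 ± 0.18 in controls 1 to 5 and 9.43 ± 0.30 in mRNA arrays. The 11 probe sets of this family differed by -0.21 to 0.33, and 7 of them were higher in mRNA arrays by sign.

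None of the 3 HSP90 probe sets was called between these groups. The cytosolic hsp90ab1.S was at 11.99, 11.70, 11.28, 11.95 and 11.27 in controls 1 to 5 and at 11.69, 11.91, 11.10, 11.27 and 11.56 in mRNA arrays 1 to 5. In the second set it ran from 10.54 to 12.21 in arrays labelled control and from 10.41 to 12.35 in arrays labelled morpholino. Both ranges of the second set were wider than those of the first, with the 2 lowest values in control 9 and morpholino 5, both tracer-high, and a value of 10.68 in the tracer-low morpholino 3. The ER form hsp90b1.L averaged 10.16 ± 0.30, 10.25 ± 0.28, 10.28 ± 0.36 and 10.34 ± 0.13 in controls 1 to 5, mRNA, controls 6 to 10 and morpholino arrays. The 3 HSP90 probe sets differed by -0.14 to 0.10 between mRNA arrays and controls 1 to 5.

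**Figure D2:**
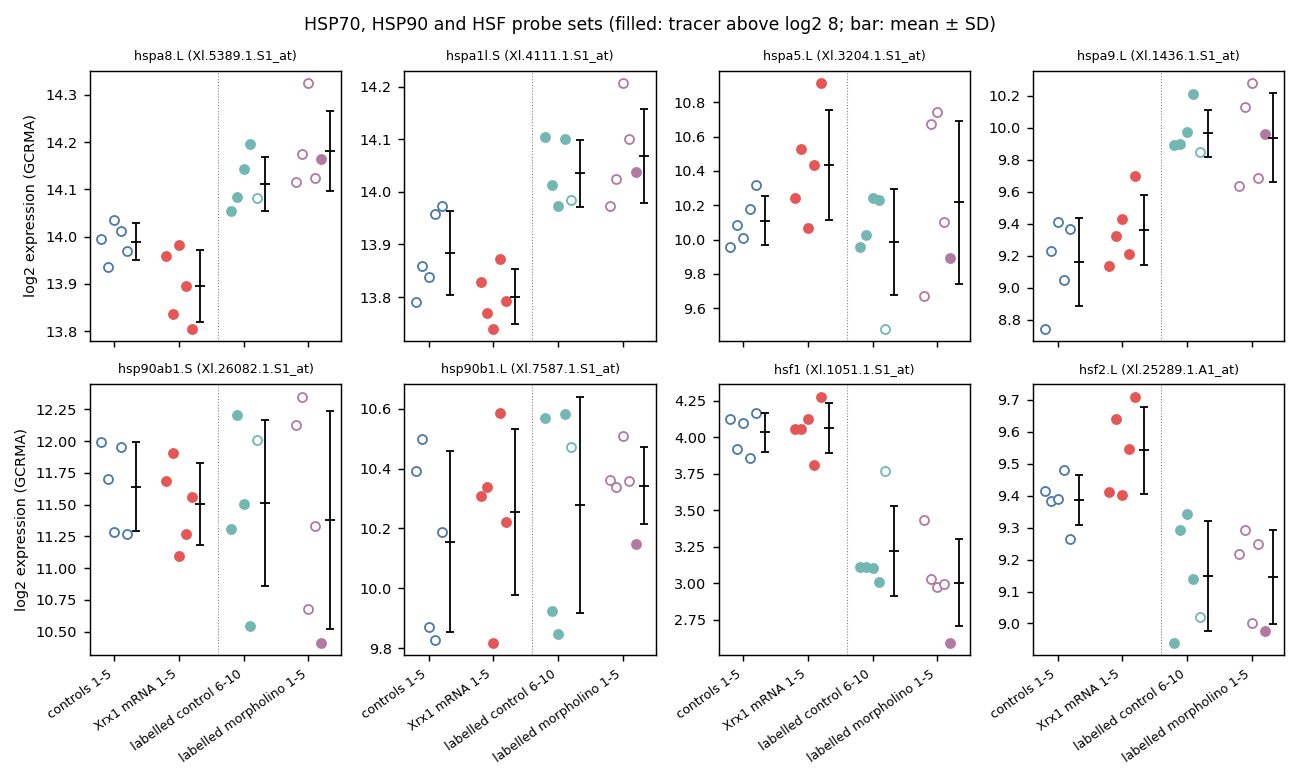
Deposited log2 values of 8 probe sets of HSP70, HSP90 and heat shock factor genes by labelled group (5 arrays each); filled points have a tracer signal above log2 8, and the bar beside each group is the mean ± SD. The dotted line parts the first set from the second; hspa9.L (8.74 to 9.70 against 9.64 to 10.28) and hsf1 (3.81 to 4.28 against 2.59 to 3.77) shift across it, while hsp90ab1.S spreads from 10.41 to 12.35 in the second set.

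The lowest member in mRNA arrays was hspbp1.L, which encodes a nucleotide exchange factor that releases ADP from HSP70. Its level was 5.57, 7.64, 7.01, 5.57 and 7.30 in controls 1 to 5. In mRNA arrays 1 to 5 it was 5.44, 5.24, 5.80, 4.79 and 3.31. All 5 mRNA arrays lay below the control of their own number, but mRNA 3 lay above controls 1 and 4, so the groups overlapped. The difference was -1.70 ± 0.53, a 3.25-fold lower level, with a limma adjusted p of 0.635, and of 0.300 with the replicate block.

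The next lowest symbols were dnajb11.S, an ER J-domain partner of BiP, at -0.67 ± 0.22, and cct8.L, a CCT/TRiC subunit, at -0.61 ± 0.20. The ER isomerase fkbp2.L was at -0.58 ± 0.24 and the chaperonin subunit cct2.S at -0.51 ± 0.23 in its lowest probe set. For all 4 the limma adjusted p was 0.635. The other cct2.S probe sets differed by -0.28 each, and the probe set shared by both copies of dnajb11 differed by -0.54. The other homeolog, dnajb11.L, averaged 8.86 ± 0.29 in controls 1 to 5 and 8.94 ± 0.22 in mRNA arrays in 1 probe set, and 8.87 ± 0.40 and 8.76 ± 0.29 in the other.

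At the high end stood fkbp9.S, an ER isomerase, at 0.70 ± 0.25 (limma adjusted p of 0.635), with its other probe set at 0.54 ± 0.26. The value of fkbp9.S in mRNA arrays 1 to 5 was 5.27, 6.49, 5.80, 5.85 and 6.75, beside 5.16 to 5.53 in controls 1 to 5. Only mRNA 1 lay inside the control range. Next came the J-domain gene dnaja4.2.S at 0.60 ± 0.41, for which control 3, at 3.92, was far below the other controls. The mitochondrial chaperonin hspd1.S was at 0.34 ± 0.22, with its other tested probe set at 0.083 ± 0.166. The small GTPase with a J domain, dnajc27.L, was at 0.33 ± 0.15, with its other probe set at 0.26 ± 0.35. None of these passed the test.

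Among all members only cct4.S did not overlap between the labelled groups of the first set, beside 1.06% of all tested probe sets in either direction and 0.412% in the lower direction. This chaperonin subunit was at 10.15, 10.13, 10.49, 10.33 and 10.09 in controls 1 to 5 and at 9.79, 9.81, 9.77, 10.06 and 9.70 in mRNA arrays 1 to 5. Every mRNA array was below every control, by a mean of -0.42 ± 0.12, with a limma adjusted p of 0.635. The CCT/TRiC family as a whole had 13 of 16 tested probe sets lower in mRNA arrays by sign. The median difference was -0.20, beside 0.031 over all tested. These 13 are not separate genes, since they include every cct2.S probe set and the one shared by both tcp1 copies. They also include cct4.L at -0.015 and cct8.S at -0.00024, the latter not above log2 4 in any array of the first set. In this comparison 0 of these 16 were called and 4 had an unadjusted p under 0.05.

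**Figure D3:**
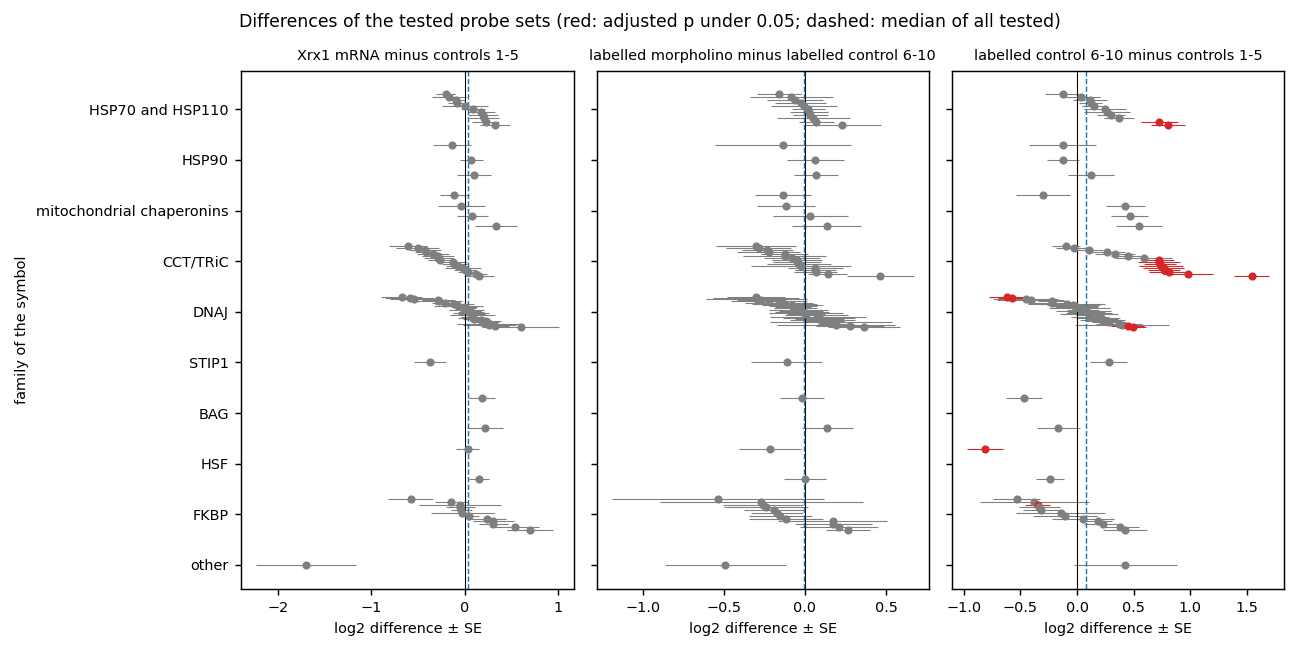
Log2 difference ± SE of each tested probe set, by family, for mRNA arrays minus controls 1 to 5 (left), arrays labelled morpholino minus arrays labelled control 6 to 10 (middle) and controls 6 to 10 minus controls 1 to 5 (right). Red points have a limma adjusted p under 0.05, which 0, 0 and 17 probe sets had; dashed lines give the median over all 10435 tested probe sets (0.031, -0.0085 and 0.083), and hspbp1.L is the point at -1.70.

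A measure of RNA quality was set beside these members. The array carries 3′ and 5′ probe sets for actin and Gapd transcripts, and their mean 3′ minus 5′ difference grows when labelled RNA is shortened. It was 1.64 ± 1.27 in controls 1 to 5 and 2.68 ± 0.81 in mRNA arrays (exact permutation test, two-sided p = 0.175, n = 5 each). It was 0.964 ± 0.443 in controls 6 to 10 and 1.32 ± 0.68 in arrays labelled morpholino. Over the 10 arrays of the first set, 6 of 79 members correlated with it at an adjusted permutation p under 0.05, beside 5.58% of all tested probe sets (5 negative and 1 positive, beside 4.71% and 0.862%). The members' share, 7.59%, was near that background. This check was chosen after the data were seen. The permutations shuffled all 10 arrays freely, although arrays of 1 label or of 1 number are not exchangeable with the others, so these p-values may be too small.

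For fkbp2.L, Pearson's r was -0.945 (permutation p = 0.00014, adjusted over all tested 0.0106) and Spearman's rho was -0.806 (permutation p = 0.00705, adjusted 0.121). For hspbp1.L, r was -0.941 (permutation p = 6.00e-05, adjusted 0.00754) and rho was -0.806 (permutation p = 0.00703, adjusted 0.121). Without the 2 arrays farthest from the median of the RNA measure, r was -0.931 for fkbp2.L and -0.883 for hspbp1.L. The level of hspbp1.L was 7.64, 7.30 and 7.01 in the 3 controls with the smallest 3′ minus 5′ difference and 5.57 in both controls with the largest.

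Negative r was also found for 1 probe set each of dnajb11.S (-0.868), cct2.S (-0.843) and cct8.L (-0.843). The single positive one was bag6.L, at 0.896, a factor that guides membrane proteins. Without the 2 farthest arrays r was -0.760, -0.852, -0.673 and 0.926 for these probe sets. By Spearman's rho, the adjusted permutation p was above 0.05 for all 6. With the RNA measure as a covariate the difference of hspbp1.L was -0.783, with a limma p of 0.0021 before adjustment (0.0086 without the covariate) and 1.00 after it. In the same fit cct4.S was at -0.435 and cct7.L at -0.358 (-0.415 and -0.269 without the covariate). The correlated probe sets of fkbp2.L, cct8.L and cct2.S were at -0.197, -0.341 and -0.207 (-0.580, -0.608 and -0.506 without it). Those of dnajb11.S and bag6.L were at -0.216 and 0.0024 (-0.590 and 0.182 without it). With this covariate 0 of 79 members were called. In the second set 0 members correlated at this threshold (0% of all tested), with hspbp1.L at r = -0.698 (permutation p = 0.020, adjusted 0.551) and at -0.195 without the 2 farthest arrays.

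**Figure D4:**
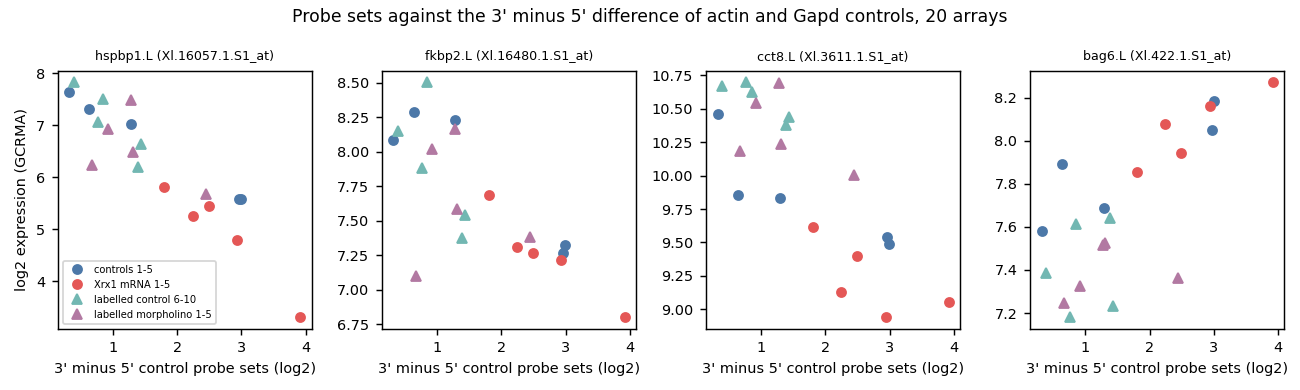
Deposited log2 values of hspbp1.L, fkbp2.L, cct8.L and bag6.L against the mean 3′ minus 5′ difference of actin and Gapd control probe sets in 20 arrays; circles are the first set, triangles the second, coloured by label. In the first set hspbp1.L runs from 7.64 down to 3.31 and bag6.L from 7.58 up to 8.27 as the RNA measure grows from 0.320 to 3.92.

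The second question was whether arrays labelled morpholino differed from arrays labelled control 6 to 10. Here, too, 0 of 79 members were called, beside 0 of all tested (0%), and 1 member (cct8.S) had an unadjusted p under 0.05, beside 3.13% of all tested. The lowest symbols were fkbp11.L at -0.54 ± 0.65, hspbp1.L at -0.49 ± 0.37, dnajc7.L at -0.30 ± 0.18, dnajc3.L at -0.30 ± 0.26 and tcp1.S at -0.30 ± 0.25. The highest were cct8.S at 0.46 ± 0.21, dnajb9.L at 0.36 ± 0.22, dnajb11.L at 0.28 ± 0.21, fkbp1b.L at 0.26 ± 0.14 and hspa5.L at 0.23 ± 0.24. All of these had a limma adjusted p of 0.998. Of them dnajc3, dnajb9, dnajb11 and hspa5 encode proteins of the ER folding machinery, and they lay on both sides of 0. The hspa5.S probe set was at -0.084 ± 0.257, and the one shared by both hspa5 copies was at -0.0054 ± 0.2037.

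Grouped by tracer state instead of label, the second set holds controls 6 to 9 with morpholino 5 as tracer-high, and control 10 with morpholino 1 to 4 as tracer-low. This grouping was read from the arrays and is described without a test. The states did not overlap for tcp1.S, which encodes the founding CCT/TRiC subunit, nor for bag6.S, beside 2.81% of all tested probe sets in the higher and 2.87% in the lower direction. The tracer-high arrays control 6 to 9 and morpholino 5 had tcp1.S at 11.22, 11.13, 10.91, 10.86 and 11.08. The tracer-low arrays control 10 and morpholino 1 to 4 had it at 10.00, 10.33, 10.21, 10.59 and 10.41. Its medians differed by 0.75 between the states, whereas in the first set tcp1.S averaged 9.84 ± 0.21 in controls and 9.73 ± 0.16 in mRNA arrays, with overlap.

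The other large median differences between tracer-high and tracer-low arrays of the second set came with overlap. They were 0.59 for hspbp1.L, 0.58 for dnajb11.S, 0.58 for the probe set shared by both tcp1 copies, 0.57 for dnajc27.L and 0.42 for cct4.S in the higher direction. In the lower direction they were -0.70 for hsp90ab1.S, -0.61 for fkbp9.L, -0.42 for the ER isomerase fkbp10.L, -0.38 for cct7.L and -0.35 for dnajc7.L. Another probe set of the same symbol differed by 0.22 for dnajb11.S, 0.14 for dnajc27.L and -0.03 for dnajc7.L. The latter is the dnajc7.L probe set given above for the labelled groups. The 3′ minus 5′ measure of RNA was 0.821 ± 0.385 in the tracer-high and 1.47 ± 0.57 in the tracer-low arrays of the second set (n = 5 each), whereas in the first set it was higher in the tracer-high mRNA arrays, at 2.68 against 1.64 in controls 1 to 5. In tracer-high morpholino 5 this measure was 0.671, but its actin pairs disagreed, with a1Act at 2.24 and a3Act at -2.03. The part of the RNA measure in these differences was not tested. The sign of the median difference between tracer states was the same in both sets for 31.6% of the members and for 44.4% of all tested probe sets.

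The third comparison set controls 6 to 10 against controls 1 to 5, which carry the same label. Since 4 of the 5 arrays labelled control 6 to 10 were tracer-high, the set, the tracer and anything that came with either cannot be told apart here. Of 79 members 17 were called (21.5%), beside 23.1% of all tested, so the members as a whole were near the background. In the higher direction were 13 members, where all tested had 14.7%, and in the lower direction 4, where all tested had 8.43%. Centring the arrays moved this split, from 63.5% to 50.0% of all calls in the higher direction, and left 12 member calls higher and 5 lower. The median member difference was 0.12, beside 0.083 over all tested. Without overlap between these controls were 11 members higher and 3 lower, beside 10.8% and 6.4% of all tested. These controls also enter the comparisons above, so the 3 comparisons are not independent.

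CCT/TRiC subunits held most of the higher calls. Of the 16 tested probe sets 9 were called (56.2%), all higher in controls 6 to 10, beside 14.7% of all tested called higher. The median difference of the 16 was 0.72. The 9 are not separate genes. They stand for 6 symbols (tcp1.S, cct2.S with 3 probe sets, cct5.S, cct6a.S, cct8.L and cct8.S) and a probe set shared by both copies of tcp1. Among the other 63 tested members 8 were called (12.7%). Without cct8.S, which passed the filter only through the second set, 8 of the 15 remaining CCT/TRiC probe sets were called. The counts that follow keep cct8.S among the tested. With the RNA measure as a covariate 9 CCT/TRiC probe sets were called, after centring the arrays or quantile normalization 9 each, and with any single array left out 8 to 10. Without the 8 arrays whose tracer goes against the label, which leaves control 10 alone on 1 side, cct8.S was the 1 member called (limma adjusted p of 0.0036), beside 2.49% of all tested. Control 10 is there a lone array, assumed to vary like the other arrays of the fit, and cct8.S had entered the test only through the second set, where every array was above log2 4.

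The widest difference was that of cct8.S. Its probe set was at 3.54, 3.92, 3.73, 3.44 and 3.59 in controls 1 to 5 and at 3.61, 3.55, 3.67, 3.59 and 3.79 in mRNA arrays 1 to 5. It was at 5.39, 5.30, 5.31, 4.73 and 5.20 in controls 6 to 10 and at 5.22, 6.21, 5.90, 5.56 and 5.37 in arrays labelled morpholino. No array of the second set overlapped the first, whatever its tracer state. The difference between the controls was 1.54 ± 0.16, a 2.91-fold higher level (limma adjusted p of 0.000107). The 10 arrays of the first set were all under log2 4, near the dim end of the scale, so the probe set passed the filter only through the second set and had to differ. A different cct8.S probe set was above log2 4 in 1 array and was not tested.

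The other homeolog, cct8.L, was above log2 4 in every array. It was at 9.49, 10.46, 9.84, 9.54 and 9.86 in controls 1 to 5 and at 10.67, 10.44, 10.70, 10.62 and 10.38 in controls 6 to 10. Control 2 reached into the range of controls 6 to 10, while the other 4 controls of the first set lay below it. The difference was 0.72 ± 0.18 (limma adjusted p of 0.0162). As said above, cct8.L was also among the lowest members in mRNA arrays, where it ran from 8.94 to 9.62.

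For cct6a.S the values were 10.11, 10.23, 10.56, 10.08 and 10.08 in controls 1 to 5 and 11.04, 11.09, 10.94, 11.12 and 10.70 in controls 6 to 10. For cct5.S they were 10.34, 10.80, 10.80, 10.62 and 10.74 against 11.34, 11.44, 11.12, 11.64 and 11.41. Neither gene overlapped between the sets, tracer-low control 10 included. The differences were 0.77 ± 0.14 for cct6a.S (limma adjusted p of 0.0033) and 0.73 ± 0.14 for cct5.S (limma adjusted p of 0.0044). The difference of tcp1.S was 0.98 ± 0.22 (limma adjusted p of 0.0094), but control 10, at 10.00, lay within the range of controls 1 to 5, which was 9.53 to 10.02. The probe sets of cct2.S differed by 0.81 ± 0.18, 0.74 ± 0.19 and 0.72 ± 0.14.

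Not every subunit moved with these. The cct7.S level averaged 10.43 ± 0.07 in controls 1 to 5 and 10.33 ± 0.19 in controls 6 to 10, and cct7.L averaged 9.24 ± 0.18 and 9.22 ± 0.28. For cct3.S the means were 9.62 ± 0.32 and 9.96 ± 0.22, for cct4.S 10.24 ± 0.17 and 10.51 ± 0.27, and for tcp1.L 10.87 ± 0.25 and 11.32 ± 0.19. The cct5b probe set differed by 0.11 ± 0.12 (limma adjusted p of 0.566), beside the called cct5.S. For cct4.L the difference was 0.59 ± 0.24 (limma adjusted p of 0.102). None of the probe sets in this paragraph passed the test, although a p that misses the threshold does not show equal levels. The 16 probe sets ranged from -0.10 to 1.54 although the subunits assemble in equal numbers; probe sets differ in how signal scales with RNA, so this range describes signals and not subunit amounts.

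**Figure D5:**
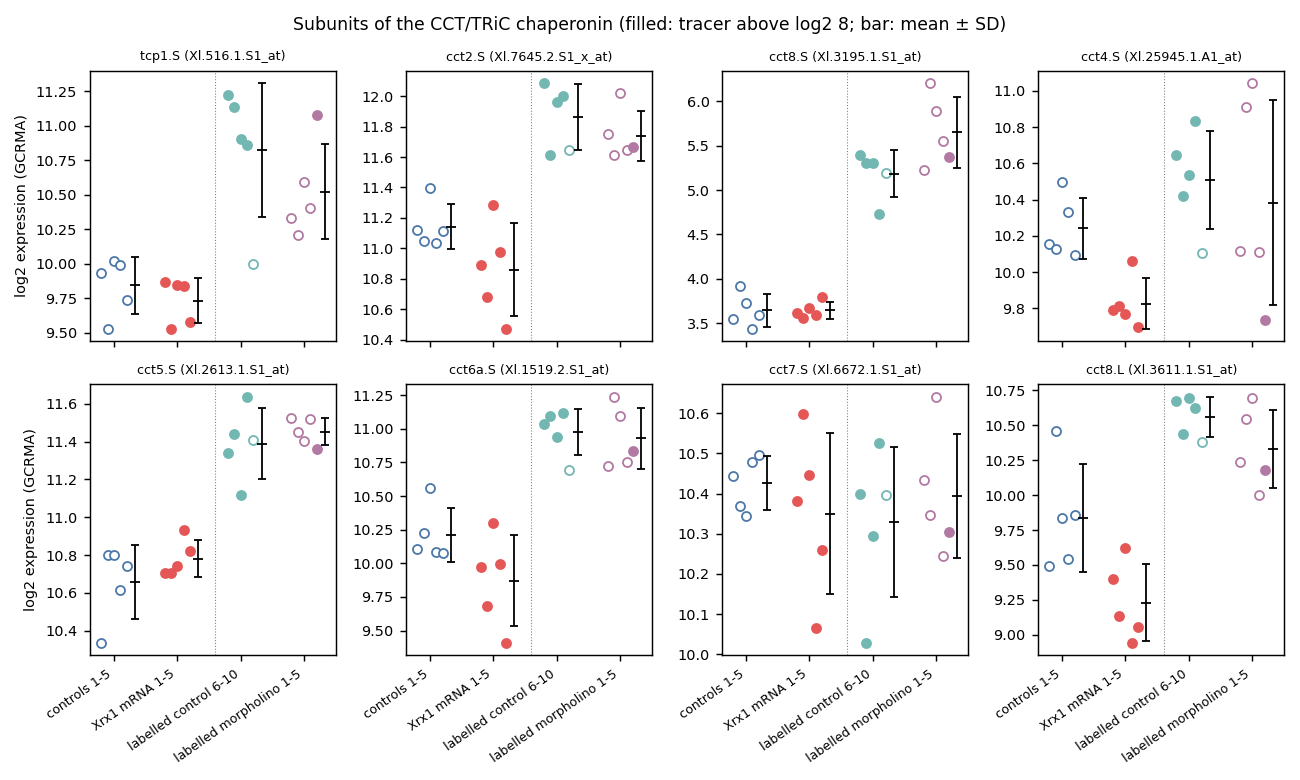
Deposited log2 values of 8 CCT/TRiC probe sets by labelled group (5 arrays each); filled points have a tracer signal above log2 8, bars are the mean ± SD, and the dotted line parts the sets. The second set lies above the first for cct2.S, cct5.S, cct6a.S and cct8.S without overlap; tcp1.S splits by tracer state inside the second set, cct4.S is lower in mRNA arrays than in controls 1 to 5, and cct7.S runs from 10.03 to 10.64 with all groups overlapping.

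The mitochondrial HSP70 gave further higher calls. Its hspa9.L copy (mortalin) was at 8.74, 9.23, 9.41, 9.05 and 9.37 in controls 1 to 5 and at 9.89, 9.90, 9.98, 10.21 and 9.85 in controls 6 to 10. The controls did not overlap. The difference was 0.81 ± 0.15 for hspa9.L (limma adjusted p of 0.0039) and 0.72 ± 0.16 for hspa9.S (limma adjusted p of 0.0096). Both homeologs were thus called in the same direction. The mitochondrial chaperonin hspd1.S and its lid hspe1.L had 3 of 4 probe sets higher by sign, at 0.43 to 0.55, and 0 called.

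The cytosolic J-domain gene dnaja1.L, a partner of hspa8, was at 11.40, 11.58, 11.41, 11.23 and 11.65 in controls 1 to 5 and at 11.86, 11.95, 12.07, 11.90 and 11.96 in controls 6 to 10. There was no overlap, and the difference was 0.49 ± 0.12 (limma adjusted p of 0.0136). After quantile normalization it was 0.34 and no longer passed. The mitochondrial import factor dnajc19.L was higher by 0.45 ± 0.15 (limma adjusted p of 0.0485). For hspa8.L itself the means were 13.99 ± 0.04 and 14.11 ± 0.06, without overlap and without a call.

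In the lower direction stood hsf1, the master regulator of the heat shock response. It was at 4.13, 3.92, 4.10, 3.86 and 4.17 in controls 1 to 5 and at 4.06, 4.05, 4.13, 3.81 and 4.28 in mRNA arrays. In controls 6 to 10 it was at 3.11, 3.11, 3.10, 3.01 and 3.77, and in arrays labelled morpholino at 3.43, 3.03, 2.97, 3.00 and 2.59. All arrays of the second set lay below all arrays of the first. The difference between the controls was -0.81 ± 0.16 (limma adjusted p of 0.0048), or -0.27 with control 10 alone. The probe set was near log2 4 or below it in every array and passed the filter only through 7 arrays of the first set, so it had to differ. Without hsf1 and cct8.S, 15 of 77 tested members were called.

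The related hsf2.L averaged 9.39 ± 0.08 in controls 1 to 5 and 9.15 ± 0.17 in controls 6 to 10, and was not called. The other lower calls were dnaja3.L, a mitochondrial J-domain gene, at -0.62 ± 0.15 (limma adjusted p of 0.0149), dnajc8.S, at -0.57 ± 0.12 (limma adjusted p of 0.0063), and fkbp1a.L, the small cytosolic FKBP12, at -0.35 ± 0.11 (limma adjusted p of 0.0414). The called dnaja3.L probe set had low means, 4.93 in controls 1 to 5 and 4.31 in controls 6 to 10. The probe sets of dnaja3.L did not all go together. Another was at -0.22 ± 0.21 and not called. The remaining one averaged 5.73 ± 0.33 in controls 1 to 5 and 5.91 ± 0.31 in controls 6 to 10. The values of dnajc8.S were 8.97 to 9.31 against 8.47 to 8.73. Below the threshold were fkbp9.L at -0.53 ± 0.20 (limma adjusted p of 0.0811) and bag6.L at -0.47 ± 0.16 (limma adjusted p of 0.0515).

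The co-chaperone stip1.L, which bridges HSP70 and HSP90, averaged 9.57 ± 0.26 in controls 1 to 5, 9.19 ± 0.27 in mRNA arrays, 9.85 ± 0.23 in controls 6 to 10 and 9.73 ± 0.45 in arrays labelled morpholino. The HSP90-binding isomerase fkbp4.S averaged 9.09 ± 0.64, 9.07 ± 0.58, 8.99 ± 0.28 and 8.82 ± 0.17 in the same order. In both groups of the first set replicate 3 was the lowest, at 8.01 and 8.04. The HSP110 gene hsph1.L averaged 10.11 ± 0.45, 10.11 ± 0.40, 10.37 ± 0.14 and 10.31 ± 0.35.

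Over all 20 arrays, with labels and tracer set aside, 8 members lay higher in every array of the second set than in any of the first and 1 lay lower, beside 3.69% and 2.07% of all tested. The 8 probe sets read cct8.S, cct5.S, cct6a.S, cct2.S (2 of them), hspa1l.S, hspa8.L and dnaja1.L, and the lower one read hsf1. Leaving aside cct8.S and hsf1, which passed the filter through 1 set alone, 7 of 77 were higher and 0 lower. Among tracer-low arrays alone 12 members were higher and 3 lower without overlap between the sets (background 8.51% and 4.89%). Among tracer-high arrays 19 were higher and 7 lower (background 13.6% and 9.67%). The CCT/TRiC family supplied 6 of the 12 and 10 of the 19, with cct8.S among them in both, and hsf1 was among the lower members in both. These counts describe the arrays and were not tested.

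Some markers of tissue were also called between the controls, where all tested had 14.7% called higher and 8.43% lower. The lists are small, and their counts were not tested against these shares. Of 6 tested epidermal marker probe sets 3 were called higher in controls 6 to 10, and the log2 of their summed signal was 13.6 to 14.7 in controls 1 to 5, 13.4 to 14.0 in mRNA arrays, 14.8 to 15.3 in controls 6 to 10 and 14.5 to 15.5 in arrays labelled morpholino. Among these 6, krt12.2.L was dim, at 3.39 to 3.62 in controls 1 to 5 and 3.77 to 4.45 in controls 6 to 10. It was above log2 4 in 8 arrays, with controls 1 to 5 all below, so the filter favoured a higher call. Of 5 neural plate probe sets 2 were called lower, with summed signals of 10.9 to 11.6, 11.0 to 11.4, 10.6 to 11.0 and 10.9 to 11.3. Of 8 endodermal probe sets 1 was called higher (11.54 to 11.92, 11.15 to 11.83, 11.66 to 11.99 and 11.07 to 11.98). Among these 8, gata6.S was at 3.01 to 3.35 in controls 1 to 5 and at 3.87 to 4.26 in controls 6 to 10. It was above log2 4 in 6 arrays, all of the second set, so it passed the filter only through that set and had to differ. The gata6.L means were 10.63 and 10.65. Paraxial mesoderm (6 probe sets) gave 11.4 to 12.5, 12.4 to 13.0, 11.8 to 12.4 and 11.9 to 12.5, and axial mesoderm (4 probe sets) 11.0 to 12.1, 11.0 to 12.1, 10.9 to 11.6 and 11.0 to 11.6, with 0 calls each. No list was absent from any group, and the part of tissue make-up in the chaperone differences was not tested.

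Genes of neighbouring pathways outside the symbol rule gave 0 calls between mRNA arrays and controls 1 to 5, and 0 between the labelled groups of the second set. Between the controls, the ER folding and unfolded protein response list had 8 of 30 tested probe sets called lower, where all tested had 8.43%, and 0 higher, with a median of -0.33. Examples were creld2.S at -0.97 ± 0.14 (limma adjusted p of 0.00098), pdia5.L, a protein disulfide isomerase, at -0.78 ± 0.16 (limma adjusted p of 0.0051), and creld2.L at -0.57 ± 0.12 (limma adjusted p of 0.0069). The creld2.S probe set was dim, with means of 3.71 in controls 6 to 10 and 4.68 in controls 1 to 5. By contrast the BiP genes among the members had means of 10.11 ± 0.14 and 9.99 ± 0.31 (hspa5.L) and 9.22 ± 0.18 and 9.26 ± 0.31 (hspa5.S) and were not called.

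In the remaining lists, too, all tested probe sets give the background, with 14.7% called higher and 8.43% lower. Other cytosolic co-chaperones had 4 of 25 called higher and 1 lower. Of them nudc.L, an HSP90 co-chaperone, was at 0.45 ± 0.11 (limma adjusted p of 0.0157). The prefoldin subunit vbp1.L, which hands actin and tubulin to CCT/TRiC, had its probe sets called in opposite directions, 0.70 ± 0.15 and -1.17 ± 0.26 (limma adjusted p of 0.0073 and 0.0091), so it has no direction. The mitochondrial list had 1 of 7 called higher and 1 lower, both of the protease subunit clpp.L, at 0.98 ± 0.19 and -0.89 ± 0.21. Of 6 probe sets for proteotoxic and oxidative stress 2 were called higher, hsbp1.L (an HSF1-binding protein) at 0.50 ± 0.12 and gclc.L (glutathione synthesis) at 0.42 ± 0.14, and 1 lower, vcp.S (a segregase for ubiquitylated proteins), at -0.65 ± 0.12.

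Homeologous copies gave a last view of the members. For 14 genes both copies had a tested probe set. The sign of the difference was the same in 10 of 14 between mRNA arrays and controls 1 to 5, and in 9 of 14 in each of the other comparisons. Between mRNA arrays and controls 1 to 5, cct8 counts as the same through the dim cct8.S at -0.00024. There dnajb11 counts as different with dnajb11.L at 0.088, whereas the other dnajb11.L probe set was at -0.113. Both copies of hspa9 were called higher in controls 6 to 10. For tcp1 the .S copy was called and the .L copy, at 0.45 ± 0.15, had a limma adjusted p of 0.0531. Probe sets of this array can read both copies where their sequences are alike, so agreement between copies is not independent evidence.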

How the data were processed

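The deposited table holds a log2 expression value per probe set and array (15611 by 20), and the submitters' processing notes name GCRMA as its source. The version, and which arrays GCRMA took together, were not stated there. The deposited log2 values ran from 0.749 to 15.4, with array medians of 5.64 to 5.88. Testing left aside the 120 control probe sets. Symbols came from the platform annotation, and 94 of the 95 members matched a RefSeq gene table of Xenopus laevis v10.1 (hsf1 did not). Groups followed the labels, and each comparison was fitted on its own 10 arrays with limma 3.58.1 (lmFit and eBayes) in R 4.3.3, checked on simulated data.

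The members, lists and comparisons were chosen with earlier results of these data known. The named genes were the called members with the smallest adjusted p (up to 10), the 5 highest and 5 lowest symbols per comparison, and fixed representatives of each family, which are given by their levels. The lists outside the members were other cytosolic co-chaperones, ER folding and unfolded protein response, mitochondrial import and proteostasis, and proteotoxic and oxidative stress; markers were those of 5 tissues. Other genes, such as cct4.S, cct7.S and bag6.S, were named after their values were seen.

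In the first set, deviations from the group mean correlated across probe sets at 0.226 to 0.634 between an mRNA array and the control that shares its number. This was over 0.1 in 5 of 5 pairs, which met the rule for treating numbers 1 to 5 as pairs. The control that correlated best had the same number for mRNA 1, 2, 3 and 5, but for mRNA 4 it was control 1. Alternatives were other filters, scalings, array weights, other sets of arrays, the replicate block and, added after the data were seen, the RNA measure as a covariate, the block with other scalings and the block with each pair left out.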

Additional observations from a re-analysis of the deposited data

Results flagged for a closer look

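Groups of 5 arrays were searched for a single array far from the other 4 of its label (Dixon's criterion at 95%), in 188 groups of the named probe sets. It picked 11 values, and chance alone picks about 1 in 20 groups. In arrays labelled control 10, the only tracer-low array among controls 6 to 10, stip1.L was low at 9.43 (others 9.91 to 10.02), hspa5.S was low at 8.72 (others 9.31 to 9.54) and hsf1 was high at 3.77 (others 3.01 to 3.11). In morpholino 3, hspa8.L was high at 14.33 (others 14.11 to 14.18) and dnajc8.S was high at 8.91 (others 8.67 to 8.72). The ER form hsp90b1.S was high in control 9 at 10.46 (others 9.95 to 10.09), and dnajc3.L, an ER J-domain gene, was high in control 8 at 8.88 (others 7.77 to 7.99). In the first set fkbp4.S was low in mRNA 3 at 8.04 (others 9.20 to 9.40), and fkbp10.L was low in mRNA 1 at 9.68 (others 10.25 to 10.47). The chaperonin probe sets picked were cct2.S, high in control 3 at 11.40 (others 11.03 to 11.12), and cct7.L, high in control 1 at 9.55 (others 9.09 to 9.21).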

How the results depend on the processing

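With the replicate block, which pairs mRNA and control arrays of the same number, 7 probe sets were called between mRNA arrays and controls 1 to 5 instead of 0, 8 with centred arrays and 7 with quantile normalization, and 0 members in each. Leaving out 1 array gave 0 to 2 called (2 without control 3, 1 without mRNA 3), and leaving out 1 pair under the block 0 to 5 (0 without pair 1, 2 or 4, 2 without pair 5). No paired analysis was possible for the other comparisons because their groups share no numbers. Between the labelled groups of the second set 23 probe sets and 0 members were called without the 8 arrays whose tracer goes against the label, with control 10 and morpholino 5 as lone arrays assumed to vary like the others. There tcp1.S reversed to 1.09 and hspbp1.L to 0.031, and against all 10 controls tcp1.S reversed to 0.19. Between the controls, 2414 probe sets and 17 members became 3828 and 27 with no filter, 1425 and 13 with log2 above 6 in at least 5 arrays, and 260 and 1 without the 8 arrays. With 1 array left out members called ran from 15 to 20 and all called from 1690 to 2400. Of all calls 63.5% were higher, but 50.0% after centring and 48.4% after quantile normalization, with 12 of 17 and 11 of 16 member calls higher. In that comparison bag6.L passed the test under 5 alternatives besides single arrays left out. Dim probe sets near log2 4 (hsf1, cct8.S, dnajc27.L, fkbp1b.L, and outside the members creld2.S, gata6.S and krt12.2.L) limit what their values can show.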
